A study of Mus musculus with 6 samples.

Results

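The 5 genes described here encode proteins that fat cells and their precursors release or that carry lipids and selenium outside the cell. They were Adipoq (adiponectin), Rarres2 (chemerin), Agt (angiotensinogen), Apod (apolipoprotein D) and Selenop (selenoprotein P). They were taken by gene symbol from 2 deposited gene lists that together hold 817 genes. The count list holds estimated read counts, and the second list holds values of 602 genes on a scale that is not given. The count list had Rarres2, Agt, Apod and Selenop, the second list had Adipoq, Agt, Apod and Selenop, and 3 members were thus in both. Another 14 of the 17 genes shared by the lists were not members.

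Libraries came from mouse cells labelled as 3T3-L1 preadipocytes, an embryonic fibroblast line that can be differentiated into fat cells. The study calls them cultured adipocytes, and the labels number the line upward from 3T3-L1 to 3T3-L6 over the 6 libraries. The 3 siRNA libraries, labelled LHX8 deficient, came from cells transfected with siRNA against Lhx8, which encodes a LIM homeobox transcription factor. The 3 vehicle libraries, labelled wild-type, received the transfection reagent alone, and all 6 carried the same batch label. This control is as the series' design text gives it, and the study's results call the sequenced controls vehicle-treated. The study's methods name a non-silencing siRNA for its mouse fat injections and a transfection reagent for human adipocytes. Several of its captions name a non-silencing siRNA for other cultured adipocytes. With reagent alone as the control, loss of Lhx8 and the presence of any siRNA cannot be told apart. Lhx8 itself was in neither list, so the knockdown was not checked here. Nothing in the labels says that the libraries came from separate cultures, so p-values measure the spread between libraries, which may be technical. The authors chose both lists for a difference between these same groups. A member that passes a test here is therefore not independent evidence of a difference, and each count of members is read against the share of its whole list.

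Adipokines are proteins that adipose tissue secretes to act on itself and on distant organs. Adiponectin is a product of mature fat cells that circulates as multimers and acts on liver and muscle, whereas chemerin is released as a precursor, cut by proteases and sensed by leukocytes and fat cells. Angiotensinogen is the precursor that renin cleaves in the route to angiotensin II, apolipoprotein D is a lipocalin that binds small lipids, and selenoprotein P carries selenium in plasma.

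The start regions of the members are shown as the sequence context of the transcripts whose levels are given next. RefSeq windows (GRCm38.p6, 250 bases before to 50 after the annotated start) were found for 4 of the 5 members, in 6 windows, because Selenop had 3. Rarres2 was not matched. The windows printed, 5′ to 3′ on the strand of the gene, are chr16:23146286-23146585 (plus strand) for Adipoq, chr8:124569657-124569956 (minus) for Agt, chr15:3270727-3271026 (plus) for Selenop and chr16:31314759-31315058 (minus) for Apod. Capitals mark matches to CCAAT, the core of the motif bound by NF-Y, or to TATAAA, the TATA box, on either strand.
Adipoq: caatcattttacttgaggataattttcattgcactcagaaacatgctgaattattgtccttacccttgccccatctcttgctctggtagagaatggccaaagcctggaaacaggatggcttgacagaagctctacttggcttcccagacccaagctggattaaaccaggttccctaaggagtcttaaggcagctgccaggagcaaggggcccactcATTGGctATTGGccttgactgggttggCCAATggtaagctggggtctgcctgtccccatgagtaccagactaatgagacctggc
Agt: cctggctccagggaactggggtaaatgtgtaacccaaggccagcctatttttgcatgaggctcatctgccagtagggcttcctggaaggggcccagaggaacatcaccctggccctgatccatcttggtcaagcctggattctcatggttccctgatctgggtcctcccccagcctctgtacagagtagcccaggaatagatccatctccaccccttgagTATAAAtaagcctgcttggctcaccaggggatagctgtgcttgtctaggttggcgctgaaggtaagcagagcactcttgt
Selenop: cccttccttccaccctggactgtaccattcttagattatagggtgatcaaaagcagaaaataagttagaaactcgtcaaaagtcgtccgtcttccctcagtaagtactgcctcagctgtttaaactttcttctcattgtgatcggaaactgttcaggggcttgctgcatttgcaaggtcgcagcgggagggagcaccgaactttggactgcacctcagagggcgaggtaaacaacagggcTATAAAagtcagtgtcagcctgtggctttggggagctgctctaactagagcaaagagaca
Apod: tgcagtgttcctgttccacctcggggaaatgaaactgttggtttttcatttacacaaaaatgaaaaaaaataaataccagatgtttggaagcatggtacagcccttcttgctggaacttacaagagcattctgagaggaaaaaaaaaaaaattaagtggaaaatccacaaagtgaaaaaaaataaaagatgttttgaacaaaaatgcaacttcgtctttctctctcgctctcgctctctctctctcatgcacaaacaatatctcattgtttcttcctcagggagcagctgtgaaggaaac
The Adipoq window held 3 CCAAT matches, at -34, -27 and -7 from the start, and 2 of these read ATTGG on the printed strand. Of 32851 RefSeq windows of this length, 37.4% held at least 1 CCAAT and 3.37% held at least 3. TATAAA lay at -30 in Agt and at -10 in the Selenop window shown, and 13.6% of all windows held it. The Selenop windows not shown held no TATAAA and no CCAAT. None of the 6 windows held TAATTA, a core sequence of LIM homeodomain proteins (5.29% of all windows), AGGTCA, a nuclear receptor sequence (16.3%), or TGACGTCA, the cyclic AMP response sequence (1.79%), and Apod held no match to any of the 5 motifs. A match is a description of letters, and these data hold no measurement of binding.

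In the second list all 4 members present were lower after siRNA, in a list where 48.8% of 496 tested genes were called lower. Among the 4, Adipoq, the adiponectin gene, had the lowest values relative to vehicle. The 2 genuine siRNA values of Adipoq were 3.47 (siRNA 1) and 2.83 (siRNA 3), against vehicle values of 8.76 (vehicle 1) and 8.96 (vehicle 2). The vehicle mean, 8.86 ± 0.141 (SD, n = 2), was 2.81 times the siRNA mean of 3.15 ± 0.453 (SD, n = 2). The groups did not overlap, which held for 96.8% of the tested genes. The deposited cells for siRNA 2 and vehicle 3 are in a date format and hold 3.15 and 8.86, the means of the other values of their group, so they were not used as measurements. In limma on log2(value + 0.1), the difference of siRNA minus vehicle for Adipoq was -1.47 ± 0.15 (SE, adjusted p = 5.8e-07, Benjamini-Hochberg). The 95% interval of this difference ran from -1.79 to -1.15. limma takes part of the spread of each gene from all tested genes. With 2 values in each group, the SE, interval and p-value of Adipoq thus rest largely on the spread of other genes. Those of the other members below do so too. In bulk RNA, fewer cells of a type and less RNA per cell cannot be told apart.

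Apod, the lipocalin, measured 4.96 in siRNA 1 and 2.88 in siRNA 2, against vehicle values of 6.63, 6.97 and 7.68. The cell of siRNA 3 was again in date format, holding the mean of the other values, 3.92. The siRNA values of Apod lay below all vehicle values but differed from each other more than the vehicle values did, with means of 3.92 ± 1.47 (SD, n = 2) and 7.09 ± 0.536 (SD, n = 3). The vehicle mean was 1.81 times the siRNA mean, and the log2 difference was -0.89 ± 0.17 (SE, limma, adjusted p = 0.00018), with an interval from -1.25 to -0.53. Without siRNA 2, the lower of its siRNA values, the log2 difference of Apod was -0.50 (limma, adjusted p = 0.0131). That fit has 1 siRNA value, 4.96, which is assumed to vary like the other libraries.

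Agt, the angiotensin precursor gene, measured 230.4, 251.1 and 269.9 in the siRNA libraries (1 to 3), while vehicle 1 to 3 had 370.4, 342.2 and 384.5. All 6 cells were genuine, and the highest siRNA value of Agt lay below the lowest vehicle value. The means were 250.5 ± 19.7 and 366 ± 21.6 (SD, n = 3 each), a ratio of 1.46 of vehicle over siRNA, and the log2 difference was -0.55 ± 0.06 (SE, limma, adjusted p = 2.4e-07).

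Selenop, the selenium carrier, measured 421.8, 469.5 and 469.2 in the siRNA libraries, while the vehicle libraries had 629.3, 626.3 and 682.4, in the same order. These groups of 6 genuine values did not overlap either. The means were 454 ± 27.5 and 646 ± 31.6 (SD, n = 3 each), a ratio of 1.42, with a log2 difference of -0.51 ± 0.05 (SE, limma, adjusted p = 1.4e-07).

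**Figure D1:**
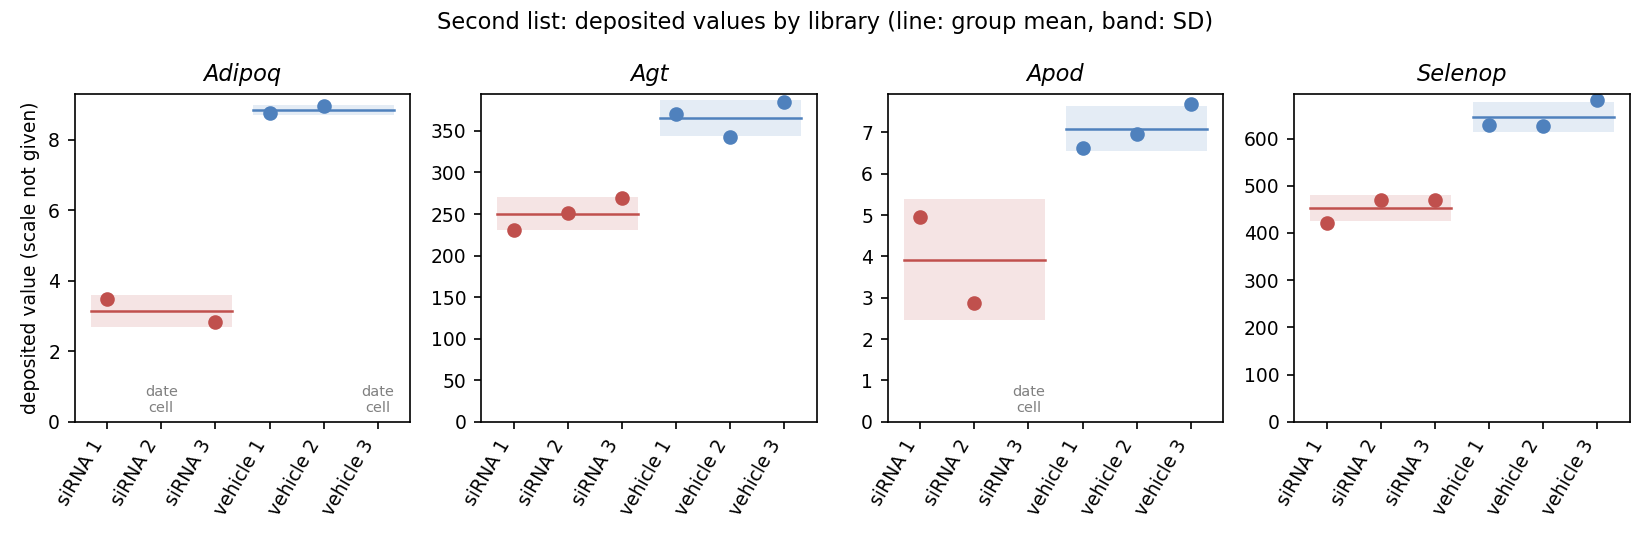
Deposited values of Adipoq, Agt, Apod and Selenop in the second list, by library, with 1 point for each genuine value on a vertical axis of unknown scale. Every vehicle point lies above every siRNA point of the same gene, and libraries without a point held a cell in date format.

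These calls have to be read against a list in which nearly every gene passes. Of 496 genes tested in the second list, 242 (48.8%) passed limma at the 0.05 threshold on the lower side and 246 (49.6%) on the higher side, and 480 (96.8%) had groups that did not overlap. Only 2 genes (0.403%) had a log2 difference between -0.1 and 0.1. Passing the test therefore did not set the 4 members apart from their list. The sizes of the differences did vary. The members' median log2 difference was -0.72. The median over all tested genes, 0.13, lies just above the gap around 0 that parts lower from higher genes, so it does not stand for a typical gene. The members were chosen with earlier results of these data known, so their sizes and ranks are descriptions only. All 4 members were among the 33 genes (6.65%) at or below -0.5, and Adipoq was among the 5 (1.01%) at or below -1. Counted from the lowest of 496 differences, Adipoq was number 3, Apod 7, Agt 25 and Selenop 29. Counted from the highest mean value of the same genes, Adipoq was number 479, Apod 480, Agt 67 and Selenop 31. The largest differences among the members were thus those of the genes near the floor of the list, which also lacked genuine values.

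Among the members, the interval of Adipoq lay wholly below those of Agt, from -0.66 to -0.43, and Selenop, from -0.62 to -0.41, which covered each other almost entirely. The interval of Apod met both that of Adipoq and those of Agt and Selenop. Differences between members were not tested. Exact two-sided permutation tests over the genuine values gave 0.1 for Agt and Selenop, 0.2 for Apod and 0.333 for Adipoq, each the smallest value its number of libraries allows.

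**Figure D2:**
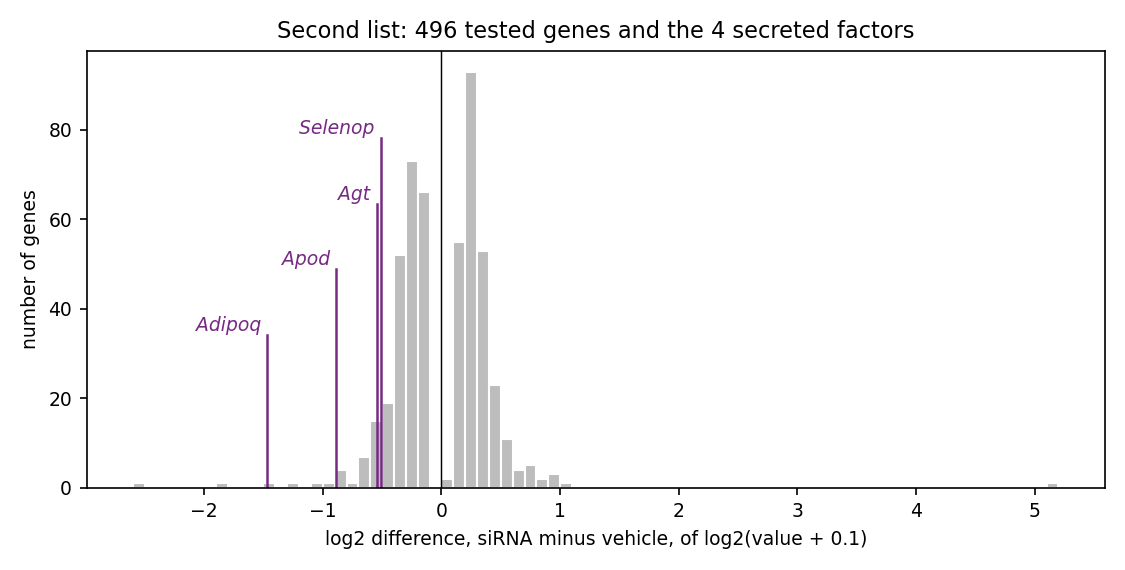
Histogram of the log2 difference of siRNA minus vehicle over the 496 tested genes of the second list, with the 4 members marked by lines. The bars are sparse around 0, where 2 genes lie between -0.1 and 0.1, and Adipoq and Apod lie in the left tail at -1.47 and -0.89.

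In the count list the groups of all 4 members overlapped, as did those of most of its genes, and vehicle 3 stood apart. Groups did not overlap for 43 genes (18.5%), of which 29 (12.5% of the list) were lower with siRNA. Summed over all its genes, 5 libraries had between 24314 and 28919 counts and vehicle 3 had 130467, and vehicle 3 was the highest library for 201 genes (86.6%). This total covers selected genes only and is no sequencing depth. The Poisson intervals below cover counting error only.

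Rarres2, the chemerin gene and the only member confined to the count list, had 367, 405 and 329 counts in siRNA 1, 2 and 3, against 431, 355 and 1487 in vehicle 1, 2 and 3. The count of vehicle 3, with a 95% Poisson interval from 1412 to 1565, was 3.78 times the mean of vehicle 1 and 2, which was 393. The siRNA mean was 367 ± 38.0 and the vehicle mean 758 ± 633 (SD, n = 3 each), whereas the medians were 367 and 431. The groups of Rarres2 overlapped.

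Agt had 29, 18 and 8 counts in the siRNA libraries and 29, 16 and 127 in the vehicle libraries. The 8 counts of siRNA 3 have an interval from 3.45 to 15.8, and the 127 of vehicle 3 one from 106 to 151. Agt in vehicle 1 equalled siRNA 1 and in vehicle 2 lay between siRNA 2 and siRNA 3, so that the groups overlapped. The means were 18.3 ± 10.5 and 57.3 ± 60.7 (SD, n = 3 each).

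Apod had 30, 48 and 25 counts with siRNA and 27, 34 and 371 with vehicle. Its vehicle 3 count was 12.2 times the mean of vehicle 1 and 2, while vehicle 1 and 2 lay within the siRNA range of 25 to 48. Selenop had 52, 49 and 54 counts with siRNA and 32, 42 and 246 with vehicle. All 3 siRNA counts of Selenop were thus above vehicle 1 and 2 and below vehicle 3. The vehicle coefficients of variation ran from 83.5% (Rarres2) to 137% (Apod), and those of siRNA from 4.87% (Selenop) to 57.3% (Agt).

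**Figure D3:**
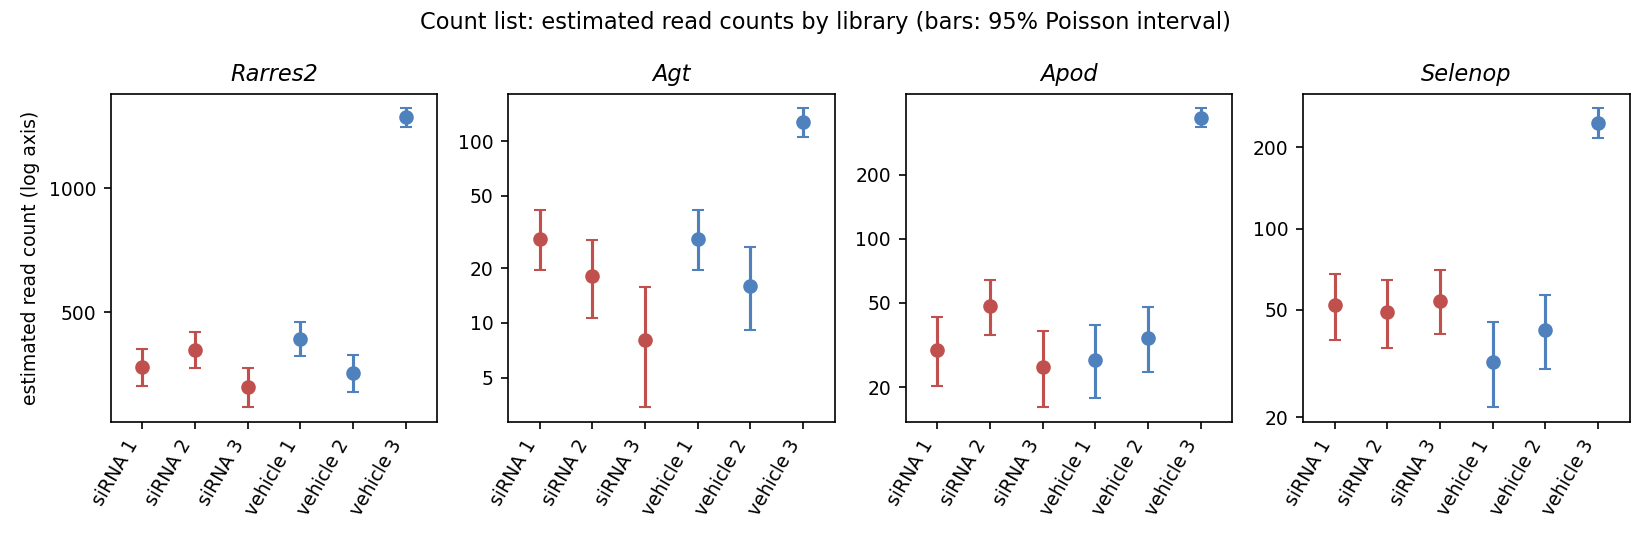
Estimated read counts of Rarres2, Agt, Apod and Selenop in the count list by library, on log axes, with bars for the 95% Poisson interval. Vehicle 3 is the highest library for each gene, and the other 5 libraries of the 2 groups overlap or, for Selenop, lie higher with siRNA.

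With edgeR's quasi-likelihood test and 1 common library size, the log2 fold of siRNA over vehicle was -1.05 ± 0.91 (SE) for Rarres2, -1.64 ± 1.10 for Agt, -2.06 ± 1.16 for Apod and -1.04 ± 1.10 for Selenop. None passed the test, with adjusted p-values (edgeR, Benjamini-Hochberg) of 0.323 for Rarres2, 0.317 for Agt and Apod and 0.353 for Selenop. Over the whole count list 0 genes (0.0%) passed, and 27 (11.6%) had an unadjusted edgeR p under 0.05. The edgeR test with size factors taken from DESeq2, DESeq2 with all factors at 1, and limma-voom also called 0 genes. DESeq2 with its own size factors was not run. Unadjusted edgeR values of the members ran from 0.0822 for Apod to 0.347 for Selenop. Exact two-sided permutation tests gave 0.3 for Rarres2, 0.5 for Agt, 0.6 for Apod and 1.0 for Selenop, where 0.1 is the smallest possible.

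The negative sign of these folds was shared by 207 genes (89.2%) of the count list, whose median was -1.55, and the members' median was -1.34. The size of the folds, and the sign for Apod and Selenop, rested on vehicle 3. Without it 119 of 201 genes tested had a negative fold, with a median of -0.10 over all of them. The members' log2 folds then were -0.10 ± 0.17 (SE) for Rarres2, -0.29 ± 0.56 for Agt, 0.17 ± 0.36 for Apod and 0.48 ± 0.24 for Selenop, with edgeR adjusted p-values from 0.465 to 0.827. Under TMM scaling, which shifted the median of all genes to -0.12 and gave vehicle 3 a relative size of 4.56, they were 0.16 ± 0.23, -0.19 ± 0.51, -0.21 ± 0.42 and 0.50 ± 0.27 in the same order. Of the 4 members, only Agt kept its negative sign in both. TMM assumes that most genes do not differ, which a selected list need not meet.

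**Figure D4:**
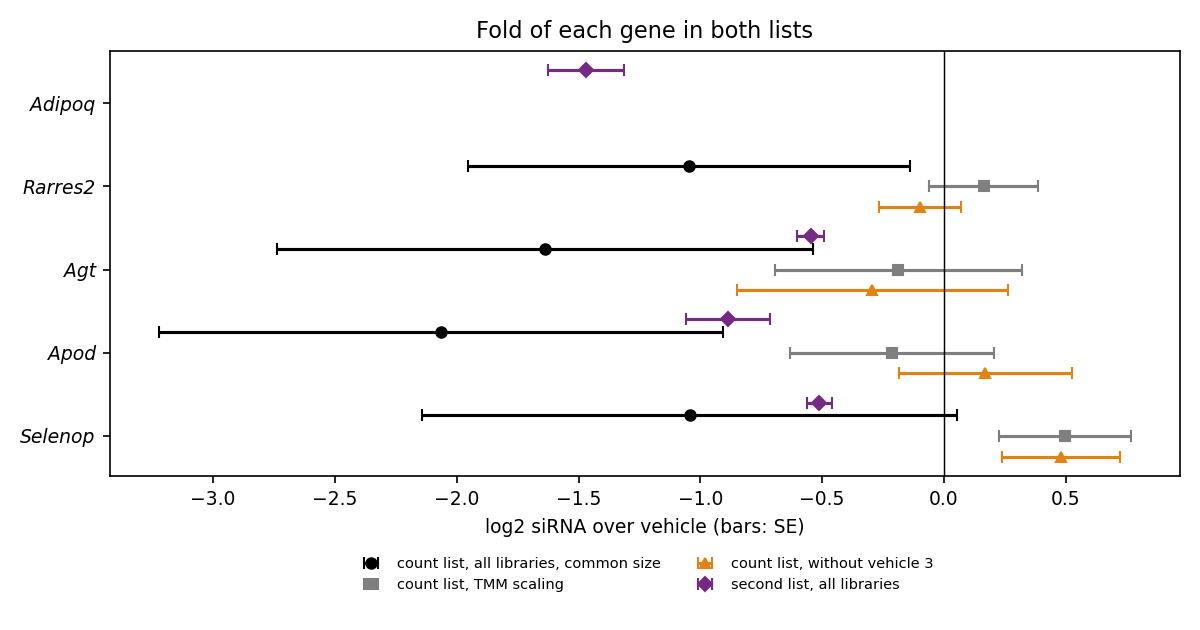
Log2 fold of siRNA over vehicle for each member, with bars for 1 standard error, from the count list with 1 common library size, with TMM scaling and without vehicle 3, and from the second list. The count-list estimates move from between -2.06 and -1.04 to between -0.29 and 0.50 under the other settings, and the second-list estimates lie between -1.47 and -0.51.

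The rise of vehicle 3 was not the same for each member. Its log2 distance from the mean of vehicle 1 and 2 was 1.92 for Rarres2, 2.47 for Agt, 2.72 for Selenop and 3.58 for Apod, beside quartiles of 1.85, 2.50 and 3.39 over all genes of the list. Apod was thus above the upper quartile, and Rarres2 lay close to the lower one. Per kilobase of exon annotated in GENCODE M21 (GRCm38), Rarres2 had 124 to 162 counts in the 5 other libraries and 560 in vehicle 3. On the same scale Selenop had 11.3 to 19.0 and 86.6, Apod 9.70 to 18.6 and 144, and Agt 4.23 to 15.3 and 67.2. Rarres2 was the highest of the 4 members in every library, and the ranges of the other members met each other outside vehicle 3.

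In the count list the available cell type markers moved the same way, with vehicle 3 the highest library. This held for 201 genes (86.6%) of the whole list and so did not set the markers apart. The leukocyte gene Itgb2, 1 of 12 leukocyte markers present, had 14 to 21 counts in 5 libraries and 213 in vehicle 3. Clec14a, 1 of 8 endothelial markers, had 46 to 69 and 432, and Msln, 1 of 10 epithelial and mesothelial markers, had 588 to 718 and 3698. The fibroblast gene Dpt had 985 to 1324 and 8486 counts, and Aoc3, a mature adipocyte gene, 126 to 173 and 577. None of these 5 genes was at 0 in any library. The part of other cells in the counts of vehicle 3 was not tested.

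Overlapping annotation limits both Rarres2 and Selenop. In GENCODE M21, 892 exon bases of Rarres2 (33.6%) are shared with Lrrc61, and 439 of Selenop (15.4%) with Ccdc152, both on the opposite strand. The strand setting of the counting is not given, so it is not known how reads of the shared bases were assigned. Adipoq, Agt and Apod shared no exon bases with another gene in that annotation.

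Agt, Apod and Selenop allowed the lists to be set side by side in the same libraries. Relative to the mean of vehicle 1 and 2, vehicle 3 was at 5.64 for Agt, 12.2 for Apod and 6.65 for Selenop by count, whereas its second-list values were at 1.08, 1.13 and 1.09. Vehicle 3 was the highest library of these 3 genes in both lists, by far less in the second list, where it was the highest for 28.6% of genes with 6 values. The siRNA libraries of Selenop lay at 1.41, 1.32 and 1.46 by count but at 0.672, 0.748 and 0.747 by second-list value, on opposite sides of 1. Those of Agt lay at 1.29, 0.800 and 0.356 by count and at 0.647, 0.705 and 0.757 by second-list value. siRNA 3 was thus the lowest siRNA library of Agt in 1 list and the highest in the other. For Apod, siRNA 1 and 2 lay at 0.984 and 1.57 by count and at 0.729 and 0.424 by second-list value.

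The second-list value per count shows the same mismatch without reference to the vehicle libraries. A single scale factor for each library would move this ratio alike for every gene. For Selenop siRNA 1 to 3 had ratios of 8.11, 9.58 and 8.69, while vehicle 1 to 3 had 19.7, 14.9 and 2.77. For Agt it was 7.94, 13.9 and 33.7 with siRNA and 12.8, 21.4 and 3.03 with vehicle. Between siRNA 1 and siRNA 3 the ratio of Agt went from 7.94 (Poisson interval 5.53 to 11.9) to 33.7 (17.1 to 78.1), while that of Selenop stayed between 8.11 and 8.69. For Apod siRNA 1 and 2 had 0.165 and 0.0600, and the vehicle libraries 0.246, 0.205 and 0.0207. One factor per library does not turn the counts of these 3 genes into their second-list values. The sources used here do not say how the authors made the second-list values.

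**Figure D5:**
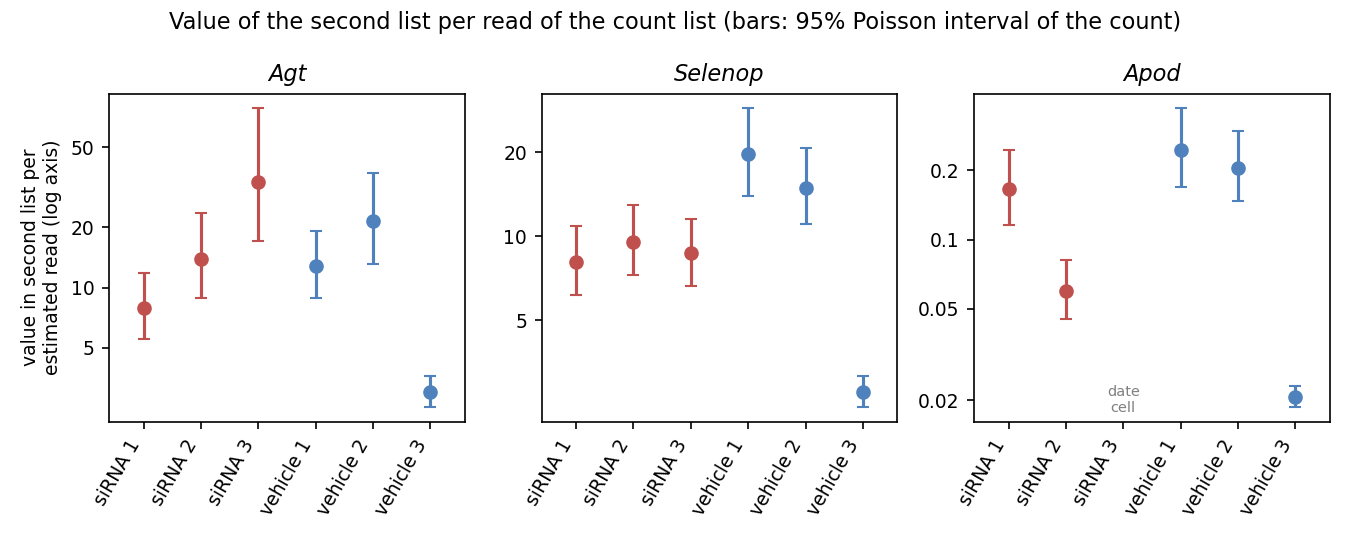
Second-list value divided by the estimated count of the same gene and library, for Agt, Apod and Selenop, on log axes, with bars from the 95% Poisson interval of the count. Vehicle 3 has the lowest ratio of each gene (3.03, 0.0207 and 2.77), and Agt and Selenop differ in how siRNA 1 and siRNA 3 compare.

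Related genes of the same pathways were sparse in both lists. Of 42 symbols of other adipokines, the count list held 2 and the second list 6, of which 4 were lower and 2 higher with siRNA in limma, with a median log2 difference of -0.19. Fstl1, a secreted follistatin-like glycoprotein, measured 451.6 to 474.1 with siRNA and 521.1 to 555.8 with vehicle, a log2 difference of -0.21 (limma, adjusted p = 0.00031). Grn, the progranulin gene, fell by 0.17 on the log2 scale (adjusted p = 0.0021).

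In the count list the chemokine gene Ccl2 had 1060 to 1324 counts with siRNA and 1436, 1273 and 7096 with vehicle. Fbn1, whose product yields asprosin, had 281 to 440 with siRNA and 234, 312 and 1672 with vehicle. Vehicle 3 was again the highest library of both genes. Their log2 folds without vehicle 3 were -0.23 for Ccl2 and 0.41 for Fbn1, and neither passed with all libraries.

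Of the 11 genes listed for adiponectin assembly, receptors and regulators, Cebpb alone was present, an adipogenic transcription factor gene with a second-list log2 difference of -0.43 (limma, adjusted p = 3.5e-06). Of 13 for chemerin receptors and processing, Cmklr1, the chemerin receptor gene, had 1 to 3 counts in 5 libraries and 66 in vehicle 3. Plat, the tissue plasminogen activator gene of the same list, had a second-list log2 difference of -0.44 (limma, adjusted p = 6.1e-05). Of 15 renin-angiotensin genes, the angiotensin-processing peptidase genes Enpep and Lnpep were in the second list. Lnpep had a log2 difference of 0.31 (limma, adjusted p = 0.0066), and Enpep was not tested, with genuine values of 5.63 in siRNA 3, 6.44 in vehicle 1 and 7.45 in vehicle 2. Renin and the angiotensin II receptors were in neither list.

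Of 21 further lipocalin, lipocalin-like and apolipoprotein genes, Orm2 and Apob were in the count list. The acute-phase carrier gene Orm2 had 43, 41 and 15 counts with siRNA and 19, 19 and 4 with vehicle, so that vehicle 3 was its lowest library, unlike any member. Apob, the gene of the main low-density lipoprotein protein, had 71, 68 and 95 with siRNA and 31, 64 and 471 with vehicle. Of 15 lipid and retinoid carrier genes none was present. Of 33 further selenoprotein and selenium-handling genes only Gpx3 was, the plasma glutathione peroxidase that contains selenium. Gpx3 measured 882.7 to 1002 with siRNA and 1138 to 1212 with vehicle, a log2 difference of -0.34 (limma, adjusted p = 9.7e-06), in the same direction as Selenop.

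The label of the cells could be checked only in part. Of 22 mature adipocyte markers, Adipoq, Lpl and Scd1 were in the second list and all 3 were lower with siRNA, Lpl by -0.29 and Scd1 by -0.13 on the log2 scale. Of 14 preadipocyte and fibroblast markers, Pdgfra, Ly6a, Col3a1 and Dpt were in it and all 4 were lower, with a median of -0.33. Of all genes tested in that list 48.8% were lower. Most markers of either stage were in neither list, so the stage of the cells was not settled here.

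The genes with the pattern most like each member were found as the smallest root mean square difference between log2 profiles centred on their own mean. In the count list, 127 genes that reached a minimum mean count over the 6 libraries were compared. Some reached it only through vehicle 3, as Kera did, with 8 to 15 counts in the other libraries and 103 in vehicle 3. Rarres2 was nearest to Enpp2, the autotaxin gene (0.0752), Pdlim2 (0.0777) and Sting1, the cytosolic DNA signalling gene (0.106). Apod was nearest to Kera, the keratocan gene (0.180), Angptl7 (0.205) and Tgtp1 (0.274), and Selenop to Nos2, the inducible nitric oxide synthase gene (0.137), Unc45b (0.152) and Fbn1 (0.154). Agt had no neighbour as close, with Togaram2 (0.289), Ifitm1 (0.441) and the chemokine gene Ccl8 (0.445).

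In the second list, over 6 libraries and 272 genes, Agt and Selenop were among each other's 3 nearest genes, with a difference of 0.0475. Selenop was closer to Ptn, the pleiotrophin gene (0.0299), and Ralgds (0.0376), and Agt was followed by Ptn (0.0494) and Fbln1, the fibulin-1 gene (0.0620). Apod, over 5 libraries and 312 genes, was nearest to Dpt (0.142), Il1rl1, the IL-33 receptor gene (0.163), and Ifi27l2a (0.200). Adipoq, over 4 libraries and 333 genes, was nearest to Kbtbd11 (0.267), the phosphodiesterase gene Pde4b (0.305) and the versican gene Vcan (0.313). These distances are descriptions over few libraries, and in the count list vehicle 3 was the library that stood apart.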

How the data were processed

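Poly(A) RNA of 3 siRNA and 3 vehicle libraries was sequenced on a DNA nanoball platform. Groups and replicate numbers came from sample titles. HISAT is named in the study's methods, RSEM in the submitters' processing notes, and Bowtie2 and DESeq2 in both, while the sources used here do not give tool versions, build, annotation or strand setting. The authors deposited estimated counts for the 232 genes of the count list, of which 86.8% are whole. The second list was deposited by the authors as numbers that are mostly not whole (0.920% are), treated as a score of unknown scale. Of its 3612 cells, 528 in date format (526 within 0.01 of the mean of the rest of their group) and 42 calendar dates were not used. The authors also deposited a log2 ratio and a p-value per gene, which were not used.

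Estimated counts were rounded and tested with edgeR 4.0.16 (R 4.3.3, quasi-likelihood, 1 common library size, summed count of at least 10). The second list was tested with limma 3.58.1 (trend) on log2(value + 0.1), for genes whose groups each had 2 or more genuine values, since its unit did not allow a count test. P-values were adjusted over each whole list (Benjamini-Hochberg, threshold 0.05), and both tests were tested on simulated data. The simulated counts had no library like vehicle 3, and most genes of the simulated second list did not differ. The simulations therefore do not cover these features of the data. Alternatives were other scalings, DESeq2 1.42.0, limma-voom, other filters and pseudocounts, a replicate block and leaving out each library. Named genes are the members, the 3 related genes with the highest mean in each list of related genes, and the 3 nearest in pattern. One gene that this rule names is not reported here. Further genes of small counts and markers were named after their values were seen. Members and lists were chosen with earlier results of these data known.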

Additional observations from a re-analysis of the deposited data

How the results depend on the processing

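In the count list 46 of 52 alternative estimates of the members kept the negative sign. None of the 51 with an adjusted p passed the threshold, and Apod had none under DESeq2 with all size factors at 1. The sign turned for Rarres2 under TMM scaling (0.16) and DESeq2 size factors (0.14), for Selenop under the same settings (0.50 and 0.46) and without vehicle 3 (0.48), and for Apod without vehicle 3 (0.17). Leaving out each library gave log2 folds from -1.39 to -0.10 for Rarres2, -2.13 to -0.29 for Agt, -2.56 to 0.17 for Apod and -1.48 to 0.48 for Selenop. It gave 0 to 6 genes past the threshold, 6 without vehicle 1 and 5 without vehicle 2, none of them a member, and 119 to 209 genes with a negative fold. TMM gave 141 negative and 91 positive folds. Under TMM, chosen after seeing the data, the log2 distance of vehicle 3 was -0.66 for Rarres2, -0.077 for Agt, 1.01 for Apod and 0.14 for Selenop. In the second list all 50 estimates kept their direction and call. The groups of all 4 members did not overlap, so leaving out a library could not turn a direction. The filter on the mean value left the estimates as they were. Cells in date format held group means for Adipoq and Apod, and using them lowered the SE of Adipoq from 0.15 to 0.07 without a new measurement. In 6 of the 50 estimates, 4 of Adipoq and 2 of Apod, leaving out a library left 1 value in an arm. That value was assumed to vary like the other libraries, so these 6 say little on stability. Adipoq and Apod could not be fitted on genes with values in all 6 libraries, a filter that left 149 lower and 122 higher genes. Leaving out each library gave -1.61 to -1.33 for Adipoq, -0.60 to -0.49 for Agt, -1.27 to -0.50 for Apod and -0.54 to -0.46 for Selenop. Same-numbered libraries deviated together with r of 0.0656, 0.0610 and 0.121 in the count list and 0.253, 0.123 and 0.0343 in the second list. For differently numbered libraries r ran from -0.110 to 0.0586 and from -0.307 to 0.133. The numbers were not taken as pairs in the main fits, and these values do not settle whether they are. With the number as a replicate block, 0 genes passed in the count list and 238 lower and 238 higher in the second list, with -1.31 for Adipoq, and no member changed its call. Counts of 8 to 54 limit Agt, Apod and Selenop outside vehicle 3.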
